A study of Mus musculus with 8 samples.

Results

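Short stretches of trimethylated histone H3 lysine 9 (H3K9me3) that stood alone along the chromosomes were described in MEF, fibroblasts of the connective tissue grown from mouse embryos. They were chosen from the deposited list of H3K9me3 peaks of wild-type (WT) cells on chromosomes 1 to 19. A member was shorter than 1500 bp, had a score of at least 100, had no other peak of the same list within 50 kb, and shared no base with a peak of trimethylated histone H4 lysine 20 (H4K20me3) in WT cells. This rule found 810 peaks, 5.71% of the 14185 WT H3K9me3 peaks on these chromosomes, out of 14596 in the whole list. The WT H3K9me3 and H4K20me3 lists chose the members, so their lengths, scores, spacing and lack of WT H4K20me3 are descriptions and not findings. The lists of H3K9me3 and H4K20me3 in cells labelled KAP1 KO and the list of KAP1 in WT cells took no part in the choice.

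H3K9me3 is a histone mark of silent chromatin that is written by methyltransferases such as SETDB1 and bound by HP1 proteins. The corepressor KAP1 (TRIM28) binds no DNA motif of its own but is brought to DNA by KRAB zinc finger proteins, where it recruits SETDB1. In mouse cells this route is known for silencing endogenous retroviruses and for keeping the mark at imprinted regions, and H4K20me3 is laid down by SUV420H enzymes, which HP1 recruits to H3K9me3.

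The series held KAP1 KO MEF, profiled for H3K9me3 and H4K20me3, and WT MEF, profiled for both marks and for KAP1, with 1 ChIP-seq library of each kind and 3 inputs without antibody that were not analysed here. Antibodies, fixation and sonication were the same for both genotypes per the labels. The labels do not say how the knockout was made, how old the embryos were or how many cultures were used, and KAP1 was not profiled in the KO cells, so the knockout was not checked in these data. With 1 library in each group there is no replicate error and no test between genotypes. A difference between the genotypes cannot be told apart from one between cultures or libraries. Intervals are exact Clopper-Pearson 95% intervals that cover counting error over peaks only. Differences between groups of peaks are descriptions and were not tested.

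The KO H3K9me3 list was far shorter than the WT list, with 3176 peaks in KO cells against 14596 in WT cells, while the H4K20me3 lists held 8920 peaks in KO cells and 11295 in WT cells. The files give peaks and scores but no reads, so the depth of each library is unknown, and a list of a shallower library is shorter at the same threshold. Each peak's score comes from the authors and was taken to be the one MACS writes, which grows as the p-value of the peak becomes smaller. A peak that is absent from a list was not called there, which does not show that the mark was absent. Positions are in build mm9, counted from 1. No annotation or genome of that build was used, so regions are named by position alone and no sequence is printed.

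The isolated short peaks had middling scores, above most of the WT list by the rule and far below its strongest peaks. Their scores ran from 100.06 to 412.41, with a median of 131 and quartiles of 111 and 169, and their lengths from 164 to 1498 bp, with a median of 691 bp and quartiles of 576 and 854 bp. Over all 14185 peaks the median score was 75.1, the highest 3100 and the median length 459 bp. Score and length moved together among the members (Spearman rho of 0.749 over 810 peaks of the same library), whereas score and the distance to the next WT H3K9me3 peak did not (rho of -0.054). The distance to the next WT H3K9me3 peak had a median of 124 kb and quartiles of 77.4 and 223 kb. The next member lay farther away, at a median of 892 kb.

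**Figure D1:**
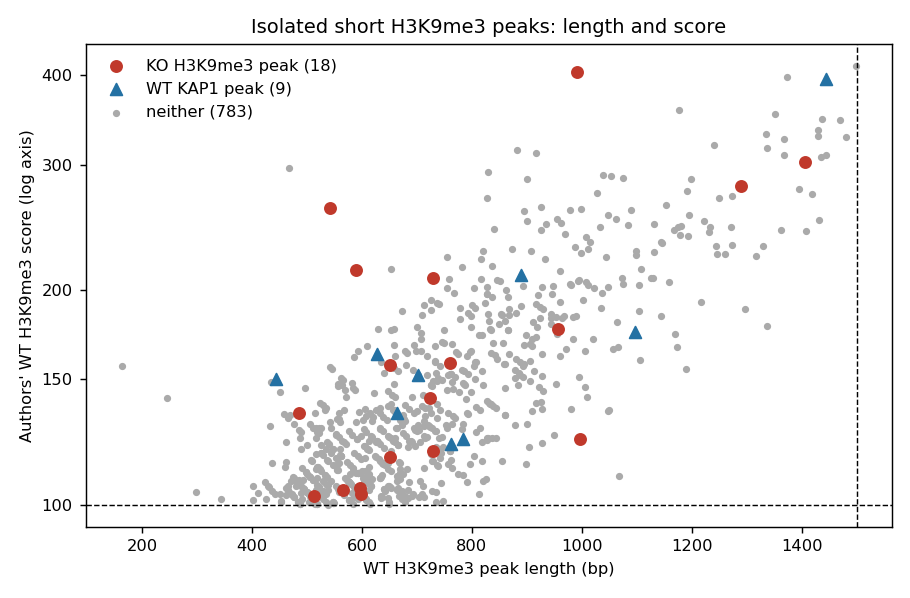
Length in bp (x axis) and the authors' WT score on a log axis (y axis) of each of the 810 isolated short H3K9me3 peaks, with the 18 that had a KO H3K9me3 peak as circles, the 9 that had a WT KAP1 peak as triangles and the limits of the rule as dashed lines. Both kinds were scattered over the range of lengths and scores, from 443 to 1443 bp for the KAP1 peaks and from 486 to 1405 bp for those with a KO peak.

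The limits of the rule divided peaks that were much alike. The longest member, on chromosome 3 from 88173502 to 88174999, measured 1498 bp, and the nearest peak excluded for its length, on the same chromosome from 87279208 to 87280710, measured 1503 bp. At the score limit, a member on chromosome 8 (84677204 to 84677742) had a score of 100.06 and an excluded peak on chromosome 9 (38426718 to 38427270) a score of 99.78. At the isolation limit, a member on chromosome 8 (46651240 to 46652058) lay 50098 bp from the next peak, and an excluded peak on chromosome 11 (114652801 to 114653271) lay 49977 bp from it. A member on chromosome 3 (120991649 to 120992133) came within 2 bp of a WT H4K20me3 peak, and an excluded peak on chromosome 4 (59316380 to 59317118) shared 41 bp with such a peak. None of these 8 peaks had a KO H3K9me3 peak or a KAP1 peak, and few members had either.

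H3K9me3 was called in KO cells at few of the isolated short peaks. Of the 810 peaks, 18 shared at least 1 bp with a KO H3K9me3 peak (2.22%, interval 1.32 to 3.49%), and 792 had none. This share was near the 2.42% of all WT H3K9me3 peaks on these chromosomes that met a KO peak. It was below the 4.31% (interval 3.74 to 4.95%) of the 4497 with a score of at least 100, a limit that every member meets. The difference was not tested. The members' share counts calls in a KO list that is shorter than the WT list on each of the 19 chromosomes.

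Few of the members without an overlapping KO peak had one close by. A KO H3K9me3 peak lay within 1 kb of 19 members (2.35%, against 3.21% of all WT H3K9me3 peaks), within 10 kb of 31 (3.83%, against 5.71%) and within 50 kb of 58 (7.16%, against 11.6%). Among the 792 members without an overlapping KO peak, 1 had a KO peak within 1 kb, 13 within 10 kb and 40 within 50 kb. The shares above include overlapping peaks, and those over all WT H3K9me3 peaks without an overlapping KO peak are not given here. The counts among the 792 therefore do not set the members apart. The median distance from a member to the nearest KO H3K9me3 peak was 769 kb, and over all WT H3K9me3 peaks it was 688 kb.

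Among the 124 members with a score of 200 or more, 118 had no KO peak and 6 had one (4.84%). At the same scores, 25 of 461 peaks that met every limit but isolation had one (5.42%). The 6 members included the one with the second-highest score of all (404.33, on chromosome 19). The 5 described next are the highest-scoring ones without a KO peak and were chosen for that absence. The strongest, the chromosome 3 peak of 1498 bp named above, had a WT score of 412.41, and the nearest KO H3K9me3 peak was 3307 kb away. On chromosome 17, the peak from 67994291 to 67995663 scored 397.81 in WT cells, with a KO peak 30.6 kb away with a score of 50.04, close to the lowest score of that list. On chromosome 7, the peak from 135831027 to 135832469 scored 395.06 in WT cells and was the strongest member that carried KAP1. Peaks with WT scores of 357.4 on chromosome 16 (33291974 to 33293149) and 353.08 on chromosome 8 (37323116 to 37324466) lay 2351 and 2167 kb from the nearest KO peak. All 5 of these peaks lay more than 10 kb from the nearest WT H4K20me3 peak, as did most members, since 77 of the 810 (9.51%) lay within 10 kb.

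The 18 members with a KO peak were spread over 12 chromosomes. Chromosomes 2 and 6 held 3 each, chromosomes 1 and 8 held 2 each, and chromosomes 4, 10, 11, 13, 15, 17, 18 and 19 held 1 each. Their WT scores had a median of 149 and those of the 792 others a median of 131. Their WT lengths, with a median of 688 bp, were close to the 691 bp of the others. The KO peaks on them were 343 to 1151 bp long, and their KO scores had a median of 82.0.

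The strongest of these 18, on chromosome 19 from 56921998 to 56922988, had a KO score of 81.05 and a WT score of 404.33, and its KO peak covered 95.6% of the WT peak. The peaks on chromosome 8 from 77308012 to 77309416 and on chromosome 10 from 70061480 to 70062769 were covered over 25.1% and 17.0% of their length, by KO peaks of 352 and 409 bp with scores of 60.73 and 67.97, beside WT scores of 302.65 and 280.31. In contrast, KO peaks covered the whole of the WT peak on chromosome 8 from 10185294 to 10185835 (KO score 135.34, WT score 260.92) and on chromosome 2 from 95100375 to 95100963 (KO score 139.42, WT score 213.38). Scores of 2 libraries of unknown depth do not measure a change in the amount of the mark.

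Agreement of the boundaries ranged from near identity to a mere touch. KO peaks covered a median of 73.7% of the 18 WT peaks. At 7 peaks they covered at least 90%, and at 7 under 50%. The lowest values were 3.85% on chromosome 4 (61150580 to 61151176) and 5.80% on chromosome 18 (47158212 to 47158935), where a KO peak of 1151 bp with a score of 226.11 had its centre 896 bp from that of a WT peak of 724 bp with a score of 141.16. At 1 member, on chromosome 15 from 72377201 to 72378156, 2 KO peaks met the WT peak.

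Where the KO peaks at members stood within the KO list differed widely. The member on chromosome 1 from 153868992 to 153869720 had a KO score of 262.12, above 97.0% of the KO list, beside a WT score of 207.68. On chromosome 17, the member from 10637844 to 10638573 had a KO score of 168.92 (above 93.7% of the KO list) beside a WT score of 119.05. On chromosome 13, the KO peak at the member from 113485599 to 113486249 had a score of 50.76, above 5.10% of the KO list. In all, 12 of the 18 KO peaks were above the median of the KO list and 6 were in its highest 10%, whereas 7 reached a KO score of at least 100. The KO peaks at these members were mostly isolated in their own list as well. Of the 18, 14 had no other KO H3K9me3 peak within 50 kb, while 40.1% of all 2862 KO H3K9me3 peaks on chromosomes 1 to 19 were isolated in this way. The members were chosen for isolation in WT cells, so this count was not tested.

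**Figure D2:**
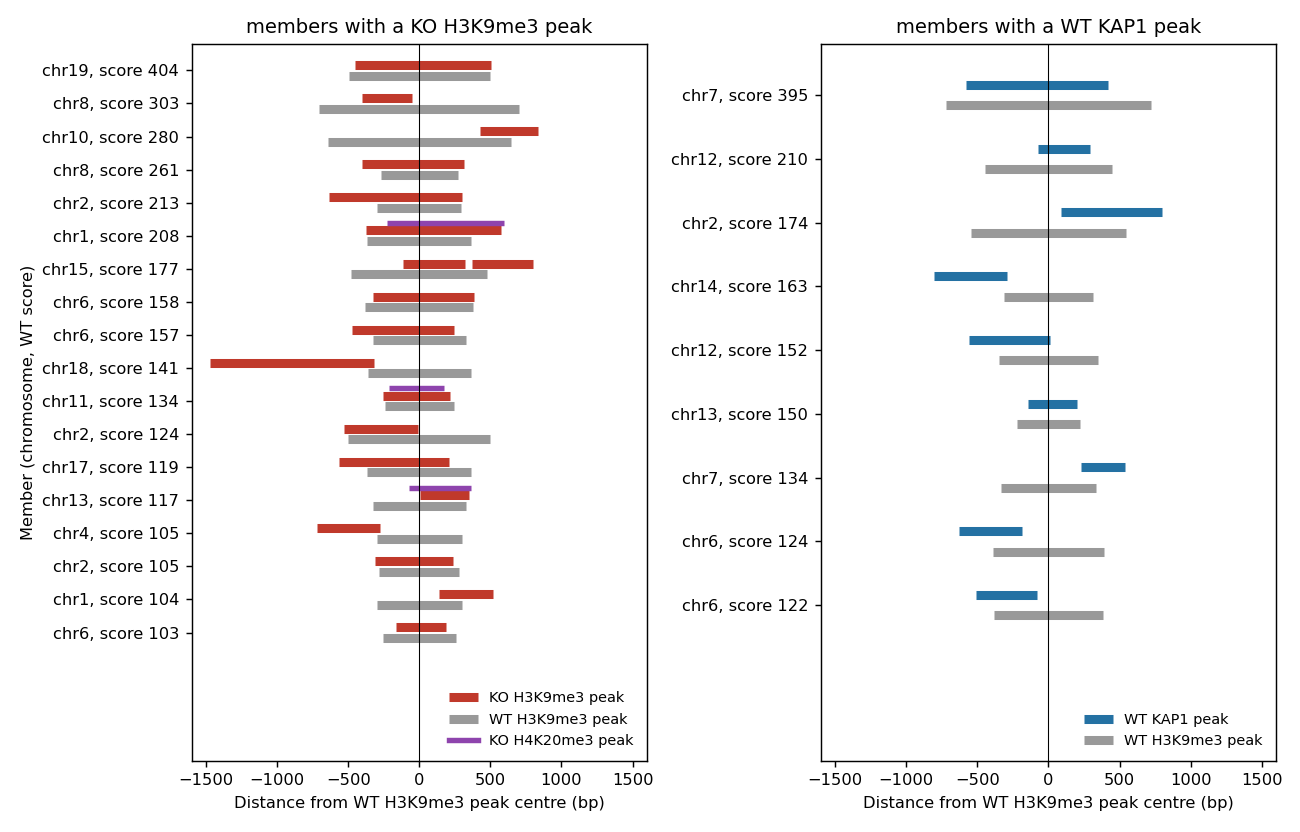
Extents of peaks, in bp from the centre of the WT H3K9me3 peak (x axis), for the 18 members with a KO H3K9me3 peak (left) and the 9 members with a WT KAP1 peak (right), ordered by WT score, with KO H3K9me3 or KAP1 above the WT H3K9me3 peak and KO H4K20me3 as a thin line at the 3 members that had it. KO peaks covered from 3.85% to 100% of the WT peak, and the KAP1 centres lay 27.5 to 552 bp from the centre of the H3K9me3 peak.

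H4K20me3 was called in KO cells at 3 members (0.370%, interval 0.0764 to 1.08%), while 1.04% of all WT H3K9me3 peaks on these chromosomes met a KO H4K20me3 peak, and 2.25% of those with a score of at least 100. Within 10 kb of a KO H4K20me3 peak lay 56 members (6.91%, against 9.9% of all WT H3K9me3 peaks). Members lack this mark in WT cells by the rule, so a low share is no finding. All 3 were among the 18 with a KO H3K9me3 peak. They were the chromosome 1 member with a KO H3K9me3 score of 262.12, with a KO H4K20me3 score of 119.41, and members on chromosome 11 from 40902859 to 40903344 and on chromosome 13 from 113485599 to 113486249. The chromosome 11 member had a KO H3K9me3 score of 99.48 and a KO H4K20me3 score of 61.59, and the chromosome 13 member scores of 50.76 and 100.02. At these 3 places both marks were called in KO cells, and H3K9me3 alone in WT cells.

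KAP1 peaks were rare at isolated short peaks. Of the 810 members, 9 shared at least 1 bp with a WT KAP1 peak (1.11%, interval 0.509 to 2.10%), near the 1.3% of all WT H3K9me3 peaks on these chromosomes, and below the 3.05% of those with a score of at least 100. Of the 361 KAP1 peaks on chromosomes 1 to 19, 160 lay on a WT H3K9me3 peak, and 9 of those were on members. The KAP1 scores at members had a median of 109, while those of the 151 KAP1 peaks on other WT H3K9me3 peaks had a median of 143 and those of the whole KAP1 list a median of 92.2. None of the 9 members had a KO H3K9me3 peak, a count of 0 of 9 that allows a share of up to 33.3%, and the 2.22% of all members lies under that limit.

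The 9 members with KAP1 differed in how the factor sat on the mark. On chromosome 7 from 135831027 to 135832469, a KAP1 peak of 998 bp with a score of 892.36, above 96.0% of the KAP1 list, lay inside the H3K9me3 peak, with centres 77.5 bp apart. KAP1 peaks on chromosome 12 (H3K9me3 peak from 18411732 to 18412621) and chromosome 13 (103156653 to 103157095) also lay inside, with KAP1 scores of 59.15 and 108.6. At the other 6 the KAP1 peak reached over the edge of the H3K9me3 peak. The next highest KAP1 scores were 295.83 on chromosome 2 (61648977 to 61650072) and 241.09 on chromosome 12 (72343144 to 72343845). The smallest overlap was 19 bp, on chromosome 14 from 12385087 to 12385714, where the KAP1 score was 139.36. The 3 weakest H3K9me3 peaks of the 9, on chromosome 7 (55997972 to 55998635) and chromosome 6 (4697922 to 4698704 and 133351291 to 133352052), had WT H3K9me3 scores of 134.33, 123.79 and 121.61 and KAP1 scores of 65.03, 78.13 and 64.22. The median distance between the centres of both peaks was 296 bp over the 9 members.

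Most other members were megabases away from KAP1. The median distance to the nearest KAP1 peak was 2272 kb, with quartiles of 893 and 5870 kb and a maximum of 41193 kb. Over all WT H3K9me3 peaks the median was 1930 kb. A KAP1 peak lay within 10 kb of 14 members (1.73%, against 3.2% of all WT H3K9me3 peaks), within 100 kb of 36 (4.44%, against 7.31%) and within 1000 kb of 226 (27.9%, against 32.1%). The closest member without overlap, on chromosome 4 from 140378488 to 140379307, lay 23 bp from a KAP1 peak with a score of 680.21. The next lay 2.94 kb away on chromosome 19 (11939630 to 11940220), 7.85 kb on chromosome 7 (149855625 to 149856593), 7.98 kb on chromosome 9 (35104161 to 35104622) and 9.30 kb on chromosome 12 (55460004 to 55460852). None of these 5 had a KO H3K9me3 peak, which was so for 792 of the 810 members.

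**Figure D3:**
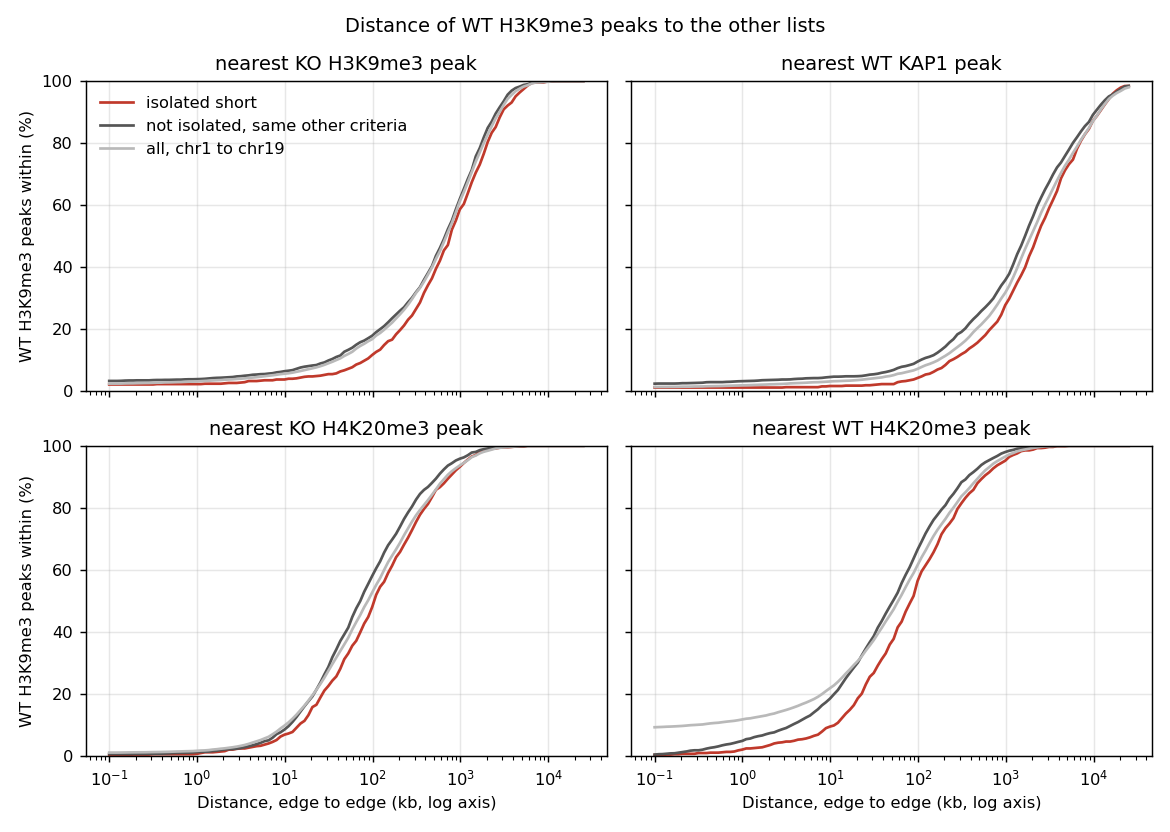
Share of WT H3K9me3 peaks (y axis, percent) with a peak of another list within a given distance (x axis, kb, log axis), for the 810 isolated short peaks, the 2615 peaks that meet every limit but isolation, and all 14185 peaks on chromosomes 1 to 19. By median, the isolated peaks lay farther from all 4 lists, at 769 kb to KO H3K9me3, 2272 kb to KAP1, 105 kb to KO H4K20me3 and 83.2 kb to WT H4K20me3. The rule kept members off WT H4K20me3 peaks, and all 14185 peaks include overlapping ones, so the distance to that list is no finding. Of all WT H4K20me3 peaks on chromosomes 1 to 19, 65.6% had a KO H4K20me3 peak. The distance to KO H4K20me3 was therefore not free of the rule either. Its median was 72.5 kb for the peaks that were not isolated and 88.1 kb for all peaks.

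Peaks that met every limit of the rule but 1 were set beside the members. The 2615 peaks that were short, had a score of at least 100 and no WT H4K20me3, but had a neighbour within 50 kb, met a KO H3K9me3 peak in 86 cases (3.29%, interval 2.64 to 4.05%) and KAP1 in 60 (2.29%, interval 1.76 to 2.94%). The members' 2.22% and 1.11% lay below these shares, with intervals that overlap. The 2781 isolated short peaks with a score under 100 met a KO peak in 32 cases (1.15%) and KAP1 in 9 (0.324%). Of 105 isolated short peaks that did carry WT H4K20me3, 11 met a KO H3K9me3 peak (10.5%, interval 5.35 to 17.97%), and of 25 isolated peaks of 1500 bp or longer, 3 did (12.0%, interval 2.55 to 31.2%). The interval for peaks with WT H4K20me3 lies above that of the members, and this difference between groups of peaks of the same libraries was not tested.

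**Figure D4:**
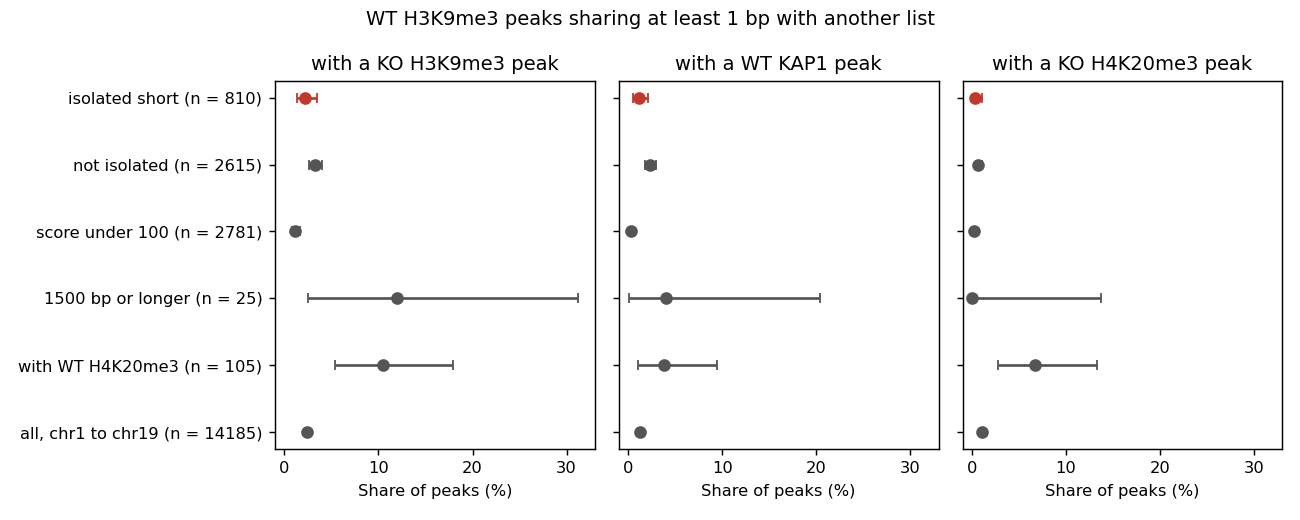
Share of WT H3K9me3 peaks (x axis, percent) that met a KO H3K9me3 peak, a WT KAP1 peak or a KO H4K20me3 peak, for the 810 isolated short peaks (top row), for 4 groups that break 1 limit of the rule each, and for all peaks on chromosomes 1 to 19. Points are shares and bars are exact 95% intervals. The isolated short peaks stood at 2.22%, 1.11% and 0.370%, while peaks with WT H4K20me3 stood at 10.5%, 3.81% and 6.67%. The 3.81% with KAP1 is 4 of 105, and its interval of 1.05 to 9.47% overlaps the 0.509 to 2.10% of the isolated short peaks. WT H4K20me3 itself divides these 2 groups, so their contrast in KO H4K20me3 is no finding.

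Counting neighbours divided the short peaks with a score of at least 100 and no WT H4K20me3 more finely. The share that met a KO H3K9me3 peak was 2.22% with no neighbour within 50 kb (the members), 2.14% with 1 neighbour (16 of 748), 3.80% with 2 to 4 (45 of 1185), 3.87% with 5 to 9 (15 of 388) and 3.40% with 10 or more (10 of 294). For KAP1 the shares in the same order were 1.11%, 2.67%, 2.78%, 1.80% and 0 of 294, a count that allows up to 1.02%. That limit takes the peaks as independent, which peaks with 10 or more neighbours within 50 kb may not be. The distance to the nearest KAP1 peak nevertheless became shorter, from a median of 2272 kb without a neighbour to 419 kb with 10 or more. The median score stayed between 131 and 141 over these classes, and the median length was 691 bp without a neighbour and 847 bp with 10 or more.

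Members were divided by score, spacing and length to compare their presence in KO cells. The share with a KO H3K9me3 peak was 1.99% for scores of 100 to 125 (7 of 351), 1.20% for 125 to 150 (2 of 167), 1.79% for 150 to 200 (3 of 168) and 4.84% from 200 upwards (6 of 124, interval 1.80 to 10.2%). Peaks that were not isolated, at the same scores, had shares of 2.61%, 3.61%, 2.48% and 5.42%. By distance to the next WT H3K9me3 peak, the members' share was 1.58% from 50 to 100 kb (5 of 317), 1.94% from 100 to 200 kb (5 of 258), 2.44% from 200 to 400 kb (4 of 164) and 5.63% from 400 kb upwards (4 of 71, interval 1.56 to 13.8%). By length it was 1.45% under 500 bp (1 of 69), 2.58% from 500 to 750 bp (11 of 427), 1.85% from 750 to 1000 bp (4 of 216) and 2.04% from 1000 to 1500 bp (2 of 98). The intervals of all these classes of members include the 2.22% of the members as a whole. By the same classes of score, KAP1 was present at 2 of 351, 1 of 167, 4 of 168 and 2 of 124 members, and at 8 of 996, 8 of 554, 11 of 604 and 33 of 461 peaks that were not isolated. The last class is open, with scores of up to 412 among members and 2097 among the others.

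Of the members farthest from any other WT H3K9me3 peak, 4 lay over 1 Mb from it, and their scores were near the limit of the rule. The farthest, on chromosome 18 from 79900979 to 79901512, lay 1629 kb from the next peak and had a score of 101.05. It was followed by members on chromosome 16 (72023269 to 72023884, 1383 kb, score 106.24), chromosome 14 (101980615 to 101981192, 1326 kb, score 107.34) and chromosome 16 again (6991788 to 6992390, 1042 kb, score 108.7). After these came a member on chromosome 6 from 21150270 to 21151030, which lay 970 kb from the next peak. Alone of these 5 it had a KO peak, which covered 92.6% of it, with a KO score of 139.09 and a WT score of 158.2. The nearest WT H4K20me3 peak was 3771 kb away from the first of the pair on chromosome 16 and 71.9 kb away from the member on chromosome 14.

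Most members lay within 100 kb of a WT H4K20me3 peak (460 of 810, 56.8%, against 61.9% of all WT H3K9me3 peaks), although by the rule none shared a base with it. The median distance was 83.2 kb, with 17 members within 1 kb (2.10%, against 11.8%, overlapping peaks included), 77 within 10 kb (9.51%, against 21.9%) and 297 within 50 kb (36.7%, against 46.2%). The H4K20me3 peaks nearest to the members were also looked up in the KO list, by their distance. Of the 17 WT H4K20me3 peaks within 1 kb of a member, 5 were also called in KO cells (29.4%, interval 10.3 to 56.0%). Of the 60 at 1 to 10 kb, 41 were (68.3%, interval 55.0 to 79.7%), and of the 219 at 10 to 50 kb, 170 were (77.6%, interval 71.5 to 83.0%). Of the 474 farther away, 299 were (63.1%, interval 58.6 to 67.4%). Over all 11104 WT H4K20me3 peaks on these chromosomes, 65.6% had a KO peak. The H4K20me3 peaks within 1 kb also had lower WT scores, with a median of 93.7, against 153 at 1 to 10 kb, 205 at 10 to 50 kb, 161 farther away and 164 over the whole list, and the part of score in the lower share was not tested.

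The same was counted beside H3K9me3 peaks that were not isolated. Of 121 WT H4K20me3 peaks within 1 kb, 12 were called in KO cells (9.92%, interval 5.23 to 16.7%), and of 286 at 1 to 10 kb, 118 were (41.3%, interval 35.5 to 47.2%). The shares were 60.1% at 10 to 50 kb (356 of 592) and 62.1% farther away (493 of 794), and the differences from the members were not tested. From near to far, these H4K20me3 peaks had median WT scores of 86.9, 122, 159 and 177, unlike those beside members. The part of score in the differences was not tested either. None of the 17 members within 1 kb of WT H4K20me3 had a KO H3K9me3 peak, which allows a share of up to 17.6%. The 2.22% of all members lies under that limit. Of the 128 H3K9me3 peaks that were not isolated and lay within 1 kb of WT H4K20me3, 8 had a KO H3K9me3 peak and 5 had KAP1. The 2 of the 17 members that carried KAP1 differed in KO H4K20me3. The one on chromosome 14 lay 418 bp from a WT H4K20me3 peak and had a KO H4K20me3 peak 0.312 kb away, and the one on chromosome 6 from 4697922 to 4698704 lay 752 bp from a WT H4K20me3 peak and 146 kb from the nearest KO H4K20me3 peak.

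Isolated short peaks were found on each of the 19 chromosomes. The number was highest on chromosome 8, with 82, chromosome 15, with 66, and chromosome 3, with 64, and lowest on chromosome 18, with 8. Per 10 Mb of the stretch between the outermost peaks of any list, chromosome 15 held 6.57 members, chromosome 8 held 6.37 and chromosome 19 held 6.01, while chromosomes 14, 7 and 18 held 1.48, 1.14 and 0.912. The chromosomes with few members were those with few WT H3K9me3 peaks of any kind, since chromosomes 14, 7 and 18 also had the lowest numbers over all peaks, with 21.9, 21.2 and 16.6 per 10 Mb. As a share of the WT H3K9me3 peaks of the chromosome, members ranged from 2.88% on chromosome 4 to 8.88% on chromosome 16. Chromosome 17 had most WT H3K9me3 peaks per 10 Mb, at 110, and the next lowest share of members, at 4.24%.

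**Figure D5:**
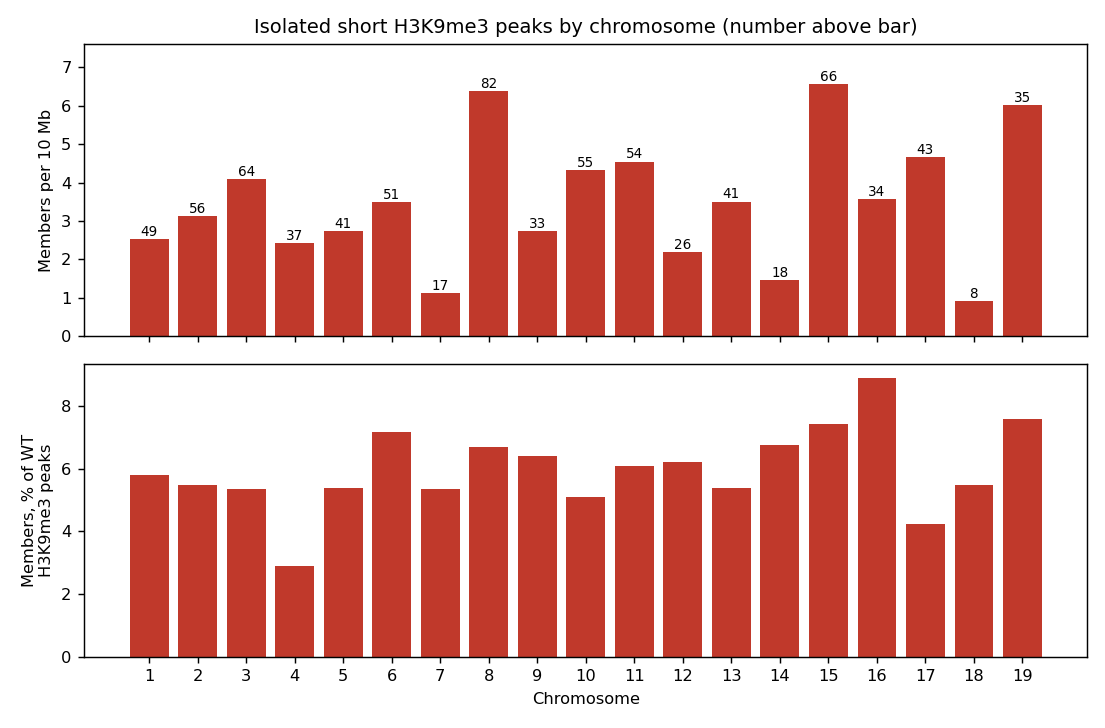
Isolated short H3K9me3 peaks on chromosomes 1 to 19, per 10 Mb of the stretch between outermost peaks (top, with the number of members above each bar) and as a percentage of all WT H3K9me3 peaks of the chromosome (bottom). The lowest bars are chromosome 18 (0.912 members per 10 Mb) and chromosome 4 (2.88% of its peaks), and the highest are chromosome 15 (6.57) and chromosome 16 (8.88%).

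The members were spread along the whole length of the chromosomes. With each chromosome cut into 5 equal lengths, the shares of the members from low to high coordinates were 16.9%, 19.4%, 19.0%, 21.9% and 22.8%. All WT H3K9me3 peaks on these chromosomes had shares of 19.2%, 16.9%, 18.6%, 18.5% and 26.7%, and short peaks that were not isolated 18.5%, 16.4%, 17.7%, 19.2% and 28.3%, so the last length held most in each case. Of the 258 windows of 10 Mb with a WT H3K9me3 peak, 235 held at least 1 member, with a median of 3 and at most 11. The fullest such window held 609 WT H3K9me3 peaks of all kinds.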

How the data were processed

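ChIP-seq peak lists of 5 libraries from MEF were analysed, with 1 library in each group. The submitters' processing notes name MACS 1.4, Bowtie2 2.2.1 and CASAVA 1.82, and build mm9. The labels give no call parameters and no control for the histone calls. KAP1 in WT was called against a WT MEF library, per the file headers. Each deposited list gives a score per peak, made by the authors, whose scale is read from its lowest value near 50. Depth is unknown. The 3 inputs were not used.

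Distances are edge to edge, and overlap means at least 1 bp. They were computed in Python 3.11.15 (pandas 2.3.3, numpy 2.4.6), tested on simulated data, and all 14185 peaks had the same overlaps and distances in bedtools 2.31.1 for each of the other lists. Intervals are exact Clopper-Pearson 95% intervals (scipy 1.17.1). Figures were drawn with matplotlib 3.10.9. The limit given for a count of 0 is 3 counts of the total.

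Members, groups and alternatives were chosen with earlier results of these data known. Named regions are up to 5 each of the highest-scoring members without a KO H3K9me3 peak, with KO H3K9me3, with KAP1 and with KO H4K20me3, those nearest to KAP1, those farthest from other peaks, and those at each limit. Other members named were chosen after their values were seen, as were the classes of score, length, spacing and neighbours.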

Additional observations from a re-analysis of the deposited data

How the results depend on the processing

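No paired analysis was possible because each group had 1 library. Of 63 recomputed values, 50 stayed within the interval of the value reported or, for the number of members, within 1.5 times it, and 13 did not. The 810 members became 493 with isolation by 100 kb, 124 for scores from 200, 3591 for scores from 50 and 1743 when only neighbours scoring 100 or more counted. The share with a KO H3K9me3 peak became 4.84% for scores from 200, 0.864% with KO scores of 100 or more and 3.83% where a KO peak 10 kb away was enough, against 2.22%. Within 10 kb the share over all WT H3K9me3 peaks was 5.71%. For members among as many top WT peaks as the KO list holds, the share was 2.46% (12 of 487). For that setting and for KO scores of 100 or more, the share over all WT H3K9me3 peaks is not given here, so neither sets the members apart. The KAP1 share of 1.11% became 0.501% for scores from 50 and 0.370% when KAP1 had to cover at least 50% of the peak. For the cover of 50% the share over all WT H3K9me3 peaks is not given here. The KO H4K20me3 share of 0.370% became 1.09% when the WT H4K20me3 list was not used and 6.91% where 10 kb was near enough, a share that was 9.9% over all WT H3K9me3 peaks. The median distance to KAP1 of 2272 kb became 2876 kb with isolation by 100 kb and 2583 kb for scores from 50. The cause was not tested. Without chromosomes 13 and 18, 16 of 761 members had a KO H3K9me3 peak (2.10%). The unknown depth of the KO library limits every count of absent peaks.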

Other observations

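Some members had a high score for their length, a class chosen after the values were seen. In the highest decile of score per length, from 25.8 to 95.6 per 100 bp, 5 of 81 members had a KO H3K9me3 peak (6.17%, interval 2.03 to 13.8%). In the other 9 deciles 13 of 729 had one (1.78%, interval 0.953 to 3.03%), with 1 of 81 in decile 9 and 0 of 81 in decile 8. The median WT score was also highest in the highest decile, at 191 against 116 to 162 in the others, and the part of score was not tested. KAP1 was present at 3 of the 81 and at 6 of the 729, of which 3 lay in the next to lowest decile. The extreme was a member on chromosome 4 from 153348330 to 153348493, 164 bp long with a score of 156.76, which had neither a KO H3K9me3 peak nor KAP1. Next came a member on chromosome 17 (13498819 to 13499285, 467 bp, score 297.0) and a member on chromosome 5 (97291064 to 97291309, 246 bp, score 141.21), both also without a KO peak. The fourth to sixth, on chromosomes 8, 19 and 2, were 3 of the 5 highest-scoring members with a KO peak, and their scores per 100 bp were 48.1, 40.8 and 36.2. Score per length is set by the WT list alone, and the difference between the deciles was not tested.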
